A study of Mus musculus with 4 samples.

Results

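The mitochondrial ribosomal protein genes are the nuclear genes whose symbols begin with Mrpl or Mrps followed by a digit, that have at least 1 transcript annotated as protein_coding and that are no named pseudogene. This rule found 78 of the 55536 mouse genes in the tables, of which 49 carry large subunit names (Mrpl) and 29 carry small subunit names (Mrps). Their products are made in the cytosol and imported into mitochondria, where they join ribosomal RNAs coded by the mitochondrial genome to form the mitoribosome. The mitoribosome makes the few proteins that the mitochondrial genome encodes, which are core subunits of the respiratory chain and of ATP synthase. T cell activation is known to raise mitochondrial mass and mitochondrial translation, and the labels name no activating treatment.

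The samples were 4 total RNA libraries of CD3 T cells from the spleen of male B6CASTF1/J mice, first-generation hybrids aged 66 days that have their maternal genome from C57BL/6 and their paternal genome from CAST/EiJ. Each library started from 300 ng of RNA with added spike-in RNAs and was labelled as a biological replicate of 1 group. All 4 carry the same donor identifier, and the labels do not say whether each came from a separate animal, so any p-value measures only the spread between these 4 libraries. There was no second condition, and the comparisons below are between genes, between gene lists and between libraries.

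Library totals ran between 14584388 and 17335895 counts, and spike-ins took 0.299% to 0.347% of counts. The 8 T cell markers examined, among them Cd3d, Cd3e and Cd3g, were present in every library, with summed levels of 2238, 2337, 2290 and 2304 TPM in libraries 1 to 4. TPM is a level corrected for transcript length and scaled to the same total in every library. Libraries 2 and 4 stood apart in some markers of other blood cells. Library 4's 6 B cell markers summed to 115.7 TPM, against 9.07 to 12.9 TPM in the other 3 libraries, and its 6 erythroid markers summed to 633.4 TPM, against 15.3 to 62.5 TPM. In library 2 the 5 neutrophil markers summed to 25.5 TPM, against 5.97 to 8.42 TPM in the other 3 libraries. Nearly all of the library 2 sum came from S100a9 at 13.3 TPM and S100a8 at 11.4 TPM. Of the 5 neutrophil markers, 2 were highest in library 4, and of the 6 erythroid markers 5 were. The 5 monocyte and macrophage markers summed to 23.7, 26.4, 22.1 and 25.8 TPM in libraries 1 to 4. All 6 B cell markers and all 6 erythroid markers were above 0 in every library, and of all marker lists only the neutrophil gene Elane was at 0 in any library.

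All 78 members were expressed in every library. Mean levels ran from 3.36 TPM for Mrpl47 to 53.5 TPM for Mrpl24, a 15.9-fold range, with a median of 13.0 TPM. The median was 9.53 TPM over the 13118 genes tested for spread between libraries, members included, and 12.9 TPM over the 10139 protein-coding genes with a mean of at least 1 TPM. Of the 78 members, 41 had at least 10 TPM in every library, 24 of the 49 large subunit genes and 17 of the 29 small subunit genes. Together the members summed to 1221 ± 17.7 TPM (SD, n = 4 libraries), or 0.122% of all TPM. The libraries hold total RNA, and the 10139 protein-coding genes took only 35.2% of TPM, so these levels are lower than they would be in a scale of messenger RNA alone. In bulk libraries, fewer expressing cells and less RNA per cell cannot be told apart.

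Genes for the large subunit, which holds the catalytic centre that joins amino acids, had the highest and the lowest level of all members. Mrpl24 (chr3:87919506-87923672, plus strand, mm10), whose product sits near the exit of the nascent peptide, had 54.5, 49.5, 49.7 and 60.2 TPM in libraries 1 to 4. Mrpl30, a homolog of a bacterial large subunit protein, had 49.5, 53.6, 55.7 and 54.8 TPM. Their order differed between libraries, Mrpl24 being higher in libraries 1 and 4 and Mrpl30 in libraries 2 and 3. Mrpl33, another protein with a bacterial homolog, had 45.6, 53.1, 48.3 and 44.2 TPM. Mrpl58, also known as Ict1, a peptidyl-tRNA hydrolase that became part of the mitoribosome and is known for releasing stalled ribosomes, had 49.4, 43.9, 50.9 and 41.7 TPM. These values of Mrpl33 and Mrpl58 overlap each other and those of Mrpl24. Mrpl54 followed with 34.0, 35.9, 26.5 and 33.8 TPM, and Mrpl37 with 24.3, 26.9, 26.3 and 24.2 TPM. Both code for proteins with no bacterial counterpart. Mrpl54 was lowest in library 3.

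At the other end of the large subunit, Mrpl47 (chr3:32725397-32737605, minus strand), a homolog of bacterial L29, had 3.56, 3.83, 2.73 and 3.33 TPM. Mrpl50 had 3.45, 4.41, 4.50 and 4.01 TPM. Mrpl50 was above Mrpl47 in libraries 2, 3 and 4 and below it in library 1. Mrpl45, whose product ties the ribosome to the inner membrane beside the peptide exit, had 4.98, 4.05, 3.82 and 6.55 TPM. Mrpl1, of the mobile stalk on the side of the subunit where transfer RNA leaves, had 5.18, 4.99, 4.77 and 4.74 TPM. Mrpl45 had the widest ratio of highest to lowest library among the members, 1.71, with library 4 highest.

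The small subunit binds the messenger RNA and decodes it. Mrps5 (chr2:127587222-127606829, plus strand), a protein of the messenger RNA entry, was its highest gene, with 42.5, 55.2, 44.2 and 48.8 TPM. Mrps21 followed with 32.0, 32.7, 36.4 and 32.5 TPM. The lowest library of Mrps5 was above the highest library of Mrps21. Mrps24, a homolog of bacterial S3 that also lines the entry of messenger RNA, had 25.1, 25.8, 23.4 and 23.5 TPM. Mrps26 had 20.7, 22.4, 21.5 and 19.3 TPM, and Mrps35 had 19.3, 18.4, 23.5 and 22.2 TPM. Both belong to the proteins that only mitochondrial ribosomes have, and their ranges overlapped.

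The lowest small subunit genes were also of that kind or, for Mrps28, of bacterial ancestry. Mrps31 had 5.65, 4.17, 4.37 and 4.66 TPM. Mrps25 had 4.90, 4.56, 5.60 and 4.95 TPM. Mrps27, a pentatricopeptide repeat protein, had 5.05, 7.09, 5.44 and 5.94 TPM. Mrps28 had 6.51, 6.79, 5.71 and 5.51 TPM. The 4 ranges overlapped in a chain, each with the next.

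**Figure D1:**
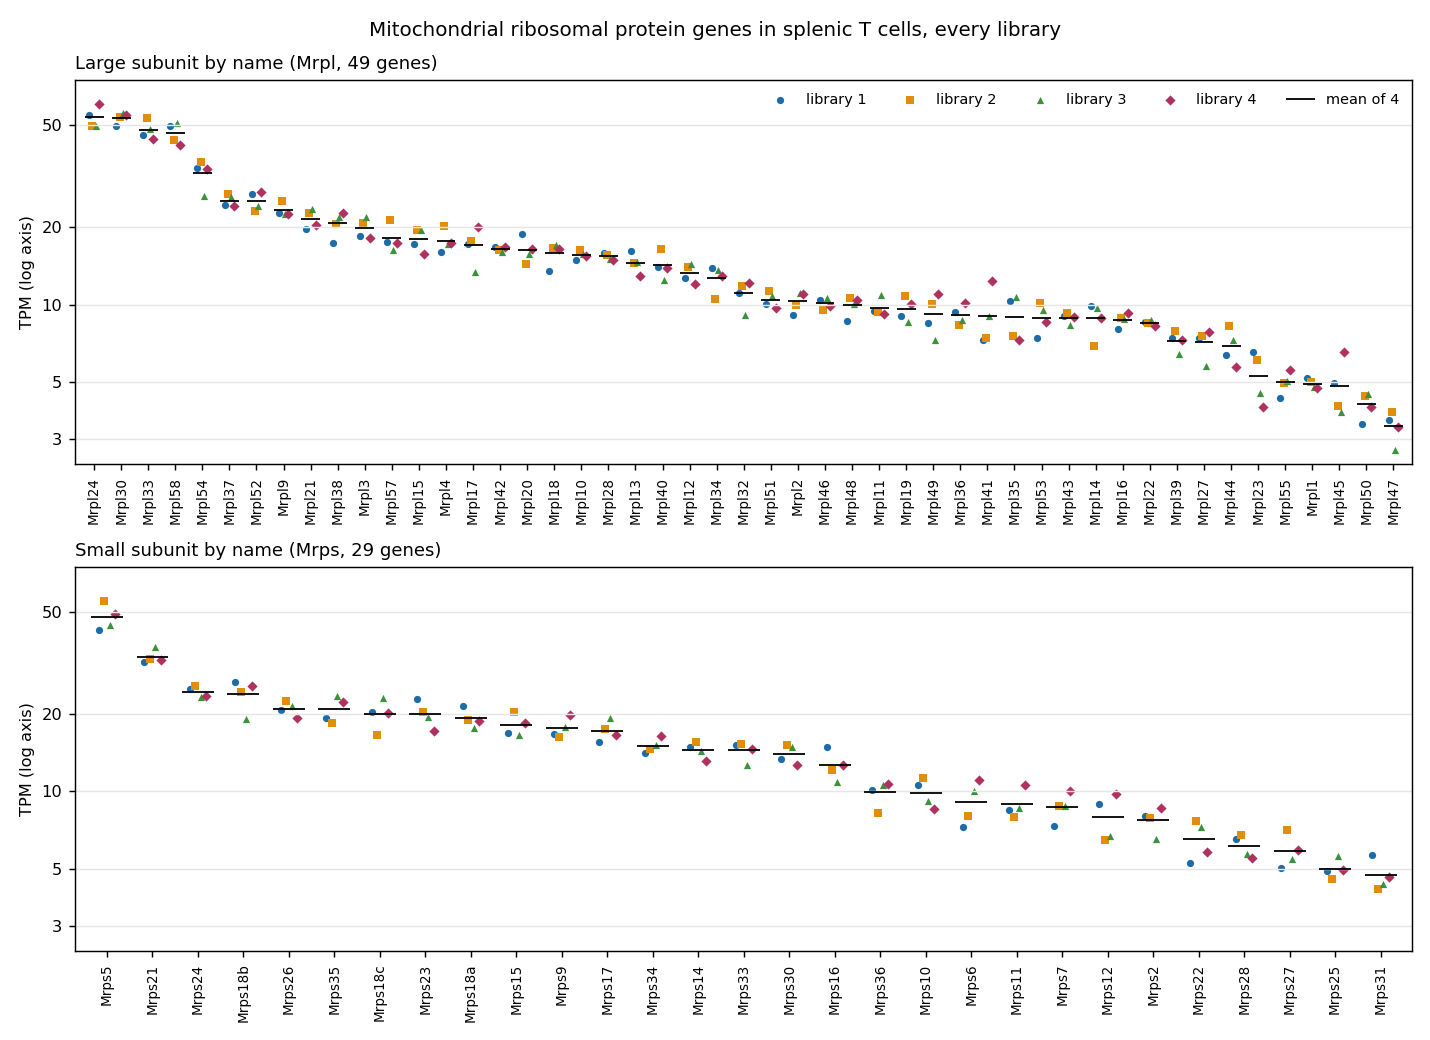
TPM of each of the 78 members (vertical log axis) in libraries 1 to 4 (symbols) with the mean of the 4 libraries (black bars), ordered by mean within the large subunit (top) and the small subunit (bottom). Mrpl24, Mrpl30, Mrpl33, Mrpl58 and Mrps5 stand above the rest in this first quantification, with no value under 41.7 TPM, and the other members fall off more gradually down to Mrpl47 at 3.36 TPM.

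The 5 highest genes stood clear of the rest in the first quantification. The lowest value of the 5 highest genes was 41.7 TPM and the highest value of any other member was 36.4 TPM, in Mrps21, so these groups did not overlap there. In the second quantification described below, Mrpl54 averaged 60.4 TPM, above Mrps5 at 55.3 TPM and Mrpl58 at 46.1 TPM, so the same 5 genes did not stand clear. Neighbours in the order mostly could not be separated. Of the 77 neighbouring pairs, the upper gene was higher in all 4 libraries in 5 pairs (Mrpl30 over Mrpl33, Mrpl58 over Mrps21, Mrpl54 over Mrpl37, Mrps30 over Mrpl12 and Mrps16 over Mrpl32), and in the other 72 pairs the order turned in at least 1 library.

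The large and the small subunit stood at nearly the same level. The mean over genes of log2(TPM + 1) was 3.77, 3.82, 3.77 and 3.80 for the large subunit in libraries 1 to 4, and 3.82, 3.83, 3.81 and 3.85 for the small subunit. The difference, large minus small, was -0.033 ± 0.018 on the log2 scale (SD, n = 4 libraries). It was below 0 in all 4 libraries, but in the second quantification described below it was 0.032, so no direction can be given. By gene medians the levels were 11.1 TPM for the large and 14.5 TPM for the small subunit. In structures of the mammalian ribosome the products of Mrps18a and Mrps30 lie in the large subunit despite their names, and Mrps36 is now counted with the oxoglutarate dehydrogenase complex. With genes placed by structure, the 20 large subunit proteins found only in mitochondria had a median of 10.3 TPM, against 13.3 TPM for the 31 with bacterial homologs. The 9 small subunit proteins found only in mitochondria and the 17 with bacterial homologs both had a median of 14.5 TPM.

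Lists of genes by site in the mitoribosome, written by hand and perhaps not complete, overlapped in level. The 7 genes of the central protuberance, which contacts transfer RNA, had a median of 14.2 TPM, the 4 genes of proteins near the catalytic centre 13.99 TPM, the 4 genes of the stalk that binds translation factors 11.5 TPM, and the 7 genes around the peptide exit 7.26 TPM. In the small subunit, the 4 genes along the messenger RNA path had a median of 16.2 TPM and the 6 genes of the head 12.2 TPM. The peptide exit list held both Mrpl24 at 53.5 TPM and Mrpl45 at 4.85 TPM. Mrpl47, the lowest member at 3.36 TPM, was not in that list. All these values are from the first quantification. In the second quantification described below, whose TPM scale differs, Mrpl45 averaged 14.3 TPM. Mrpl23, also of the peptide exit, averaged 5.29 TPM in the first and 41.9 TPM in the second, while Mrpl17 went from 17.1 to 15.5 TPM. The low median of the peptide exit list may therefore depend on the quantification. A further list held 11 members in which variants are known to cause combined oxidative phosphorylation deficiency in people, among them Mrpl3, Mrps16 and Mrps22. Its median was 12.7 TPM, and other members with such variants may be missing from it. Coding length, 65 to 442 codons with a median of 194, did not go with the level. Spearman's rho across the 78 genes was -0.053 and Pearson's r with log2(TPM + 1) was -0.065, both over values from the same 4 libraries.

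The stalk holds more than 1 copy of the Mrpl12 protein for each copy of Mrpl10, which anchors it. Mrpl12 had 12.7, 14.1, 14.5 and 12.1 TPM, and Mrpl10 had 14.9, 16.3, 15.8 and 15.4 TPM. Mrpl12 was the lower gene in every library of the first quantification. The difference of log2(TPM + 1), Mrpl12 minus Mrpl10, was -0.21 ± 0.087 (SD, n = 4 libraries), with an adjusted p of 0.25 over the 4 gene pairs compared, by a two-sided exact sign-flip permutation test. The unadjusted p of 0.13 is the smallest that this exact test can give with 4 libraries. In the second quantification the difference was 0.10, so no direction can be given.

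The 3 Mrps18 genes descend from 1 bacterial protein, S18. Mrps18b had 26.7, 24.4, 19.2 and 25.7 TPM. Mrps18a had 21.6, 19.0, 17.7 and 18.9 TPM, and Mrps18c had 20.3, 16.6, 23.1 and 20.2 TPM. Mrps18b was above Mrps18a in all 4 libraries and above Mrps18c in all but library 3. The difference Mrps18b minus Mrps18a was 0.29 ± 0.13 on the log2(TPM + 1) scale (SD, n = 4 libraries; two-sided exact permutation p = 0.13, adjusted p = 0.25). Mrps18b minus Mrps18c was 0.25 ± 0.34 (exact permutation p = 0.25, adjusted p = 0.333). Mrps18a minus Mrps18c was -0.048 ± 0.24 (exact permutation p = 0.75, adjusted p = 0.75). Both differences to Mrps18c moved with the settings. Without library 3, Mrps18b minus Mrps18c was 0.41 and Mrps18a minus Mrps18c 0.057, and without library 2 they were 0.15 and -0.13. In the second quantification the same differences were 0.15 and -0.25. None of these differences could be separated from the spread between libraries in a design of this size.

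Set beside the cytosolic ribosome, the mitochondrial ribosome had a small messenger RNA pool. The mean level of the 78 members was 3.80 ± 0.020 on the log2(TPM + 1) scale, against 9.53 ± 0.042 for 76 cytosolic ribosomal protein genes (SD, n = 4 libraries each). The difference was -5.73 ± 0.037 and lay between -5.77 and -5.68 in every library. The gene medians were 13.0 TPM for the members and 848.8 TPM for the cytosolic genes. Against 74 nuclear genes of oxidative phosphorylation, which code for the imported subunits of the complexes that mitoribosomes help to build, the members were lower by a steady amount. That difference was -1.39, -1.38, -1.38 and -1.37 in libraries 1 to 4, with gene medians of 13.0 TPM for the members and 35.3 TPM for oxidative phosphorylation.

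The members stood above the mitochondrial translation factors, but not above every list of genes that work with the mitoribosome. Their median was 13.0 TPM, against 17.8 TPM for the 5 genes of membrane insertion. The difference of the members to 12 mitochondrial translation factors was 0.87 ± 0.094 (SD, n = 4 libraries), with 0.93, 0.90, 0.91 and 0.73 in libraries 1 to 4. Without library 4 it was 0.91 ± 0.019 (n = 3). Among the factors, Tufm, the elongation factor that brings aminoacyl-tRNA, was highest at 18.1 ± 1.93 TPM, and the release factor Mtrf1 was lowest at 0.448 ± 0.056 TPM. The 27 genes of mitoribosome assembly and ribosomal RNA modification had a median of 8.84 TPM, led by the helicase gene Dhx30 at 45.6 ± 1.73 TPM. The 23 genes listed under mitochondrial aminoacyl-tRNA synthesis had a median of 8.34 TPM. The 17 genes of mitochondrial transcription and messenger RNA handling had 11.99 TPM. The 5 mitoribosomal proteins that carry other names, Ptcd3, Dap3, Aurkaip1, Chchd1 and Gadd45gip1, had a median of 28.3 TPM, against 13.0 TPM for the members.

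By list median, the RNAs made inside the mitochondria were far above the nuclear genes that serve them, but single genes overlapped. The lowest mitochondrially coded messenger RNA averaged 51.6 TPM, below Mrpl24 at 53.5 TPM. The 13 mitochondrially coded messenger RNAs had a median of 574.9 TPM, and the ribosomal RNAs of the small and the large mitoribosomal subunit, mt-Rnr1 and mt-Rnr2, had 26739 ± 1237 and 25831 ± 1239 TPM (SD, n = 4 libraries). Total RNA libraries with ribosomal RNA reduction may not keep ribosomal RNA in proportion, so these levels describe the libraries and not the cells.

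**Figure D2:**
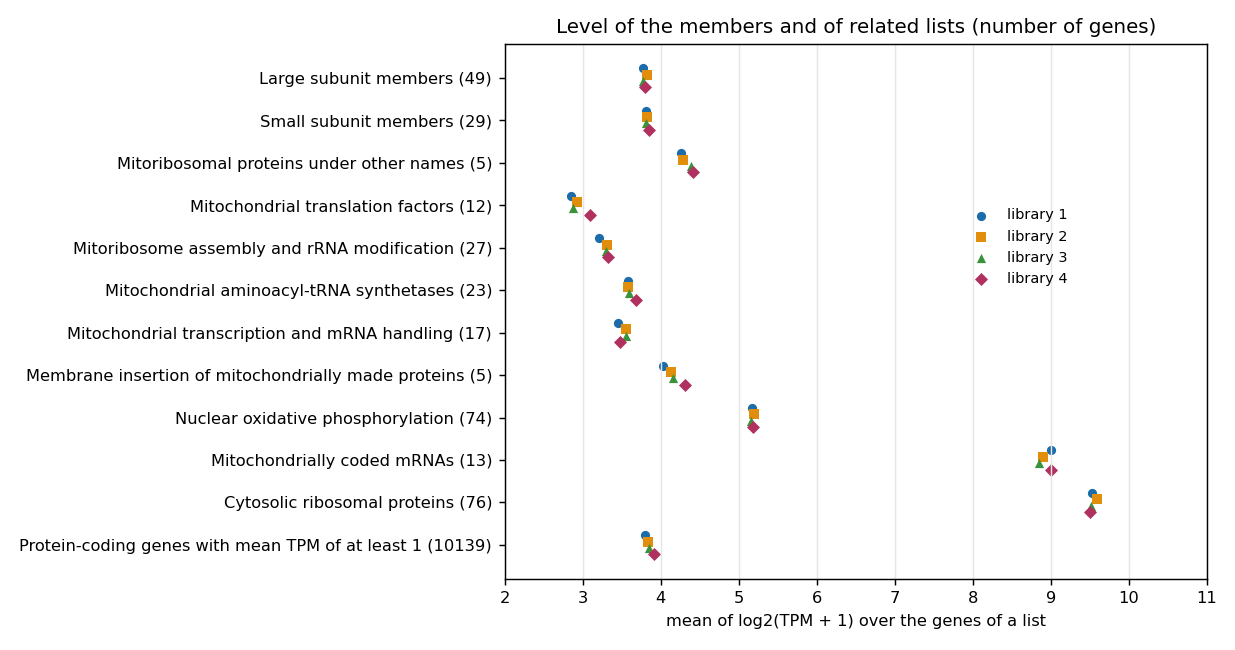
Mean of log2(TPM + 1) over the genes of each list (horizontal axis) in libraries 1 to 4 (symbols), with the number of genes in parentheses. Both subunits lie near 3.8 in all 4 libraries, below nuclear oxidative phosphorylation near 5.18 and cytosolic ribosomal proteins near 9.53, and above the mitochondrial translation factors near 2.94.

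No member was called as varying between the libraries, a count near what the share over all genes gives for 78 genes and so not a result about the members. In edgeR's goodness-of-fit test, 0 of the 78 members had a Benjamini-Hochberg adjusted p below 0.05, where the background was 183 of 13118 genes tested, or 1.40%. At an unadjusted p below 0.05 the count was also 0 of 78, with a background of 603 genes, or 4.60%. DESeq2's size factors and trend likewise gave 0 of 78, with 180 genes called in all. All 78 members passed the filter on low counts, and their mean counts ran from 60 to 845.8 with a median of 207. On counts simulated for 12896 genes, this test recovered 69.7% of the genes raised 2-fold in 1 library and 99.0% of those raised 4-fold.

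The member with the largest edgeR statistic was Mrpl23, which had 6.55, 6.08, 4.53 and 4.01 TPM. Mrps30, Mrps18b, Mrpl54 and Mrpl58 followed. Mrps30, a protein of the large subunit in structures, had 13.3, 15.1, 14.9 and 12.6 TPM. The ratio of the highest to the lowest library had a median of 1.26 over members and passed 1.5 in 5 of them, Mrps6, Mrps12, Mrpl23, Mrpl41 and Mrpl45, each with a mean of no more than 158 counts. It passed 2 in none. The median coefficient of variation was 10.1% over members, 11.3% over all genes tested and 9.59% over protein-coding genes with a mean of at least 1 TPM. Members at or above the median count had a median of 9.34%, and those below it 11.7%.

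The mean deviation of the members in each library was small and depended on the scaling. On the log2 CPM scale (counts scaled to library size, normalized by TMM), the mean deviation of the members from their own means was 0.031, 0.022, -0.026 and -0.027 in libraries 1 to 4. In library 4, 12 of the 49 large subunit genes were above their own mean, against 17 of the 29 small subunit genes. The cytosolic ribosomal protein genes stood farther from an even split, with 3 of 76 above their mean in library 4 and 75 of 76 in library 2. Of all 13118 genes, 6697 were above their mean in library 4. Scaled by total counts alone, a setting added after the data were seen, 17 of 49 large and 20 of 29 small subunit genes were above their mean in library 4, and the mean deviation of all members was 0.0066, 0.0056, -0.019 and 0.0063 in libraries 1 to 4. No direction is therefore given for any library. Library 4 is also the library with the B cell and erythroid RNA given above. Library 2 is the one with the high S100a8 and S100a9, and the part of other blood cells in these values was not tested. Without library 4, 0 of the 78 members were called, against 0.873% of the genes tested, and 1 member had an unadjusted p below 0.05, against 5.35% of the genes tested.

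**Figure D3:**
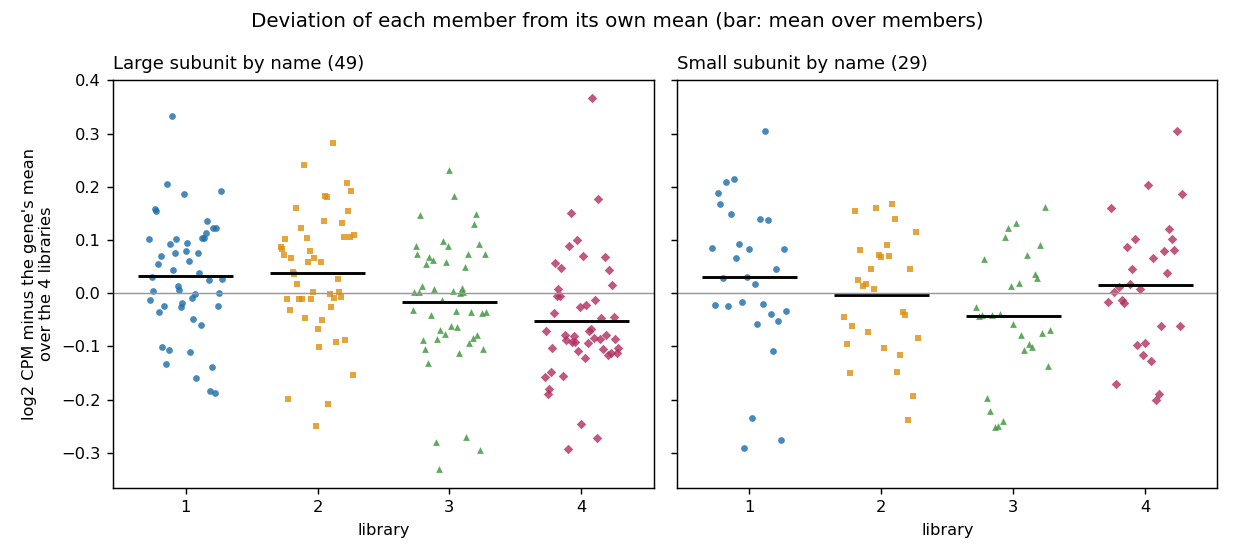
Deviation of each member from its own mean over the 4 libraries, in log2 CPM (vertical axis), by library (horizontal axis), for 49 large subunit genes (left) and 29 small subunit genes (right). Counts were scaled by TMM, and bars mark the mean over genes, which stays between -0.053 and 0.038 in all 8 sets of points.

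The transcript tables divide each gene among its annotated transcripts, of which the members have 343, with a median of 4 per gene. Transcripts annotated as protein_coding took 61.6%, 61.1%, 61.4% and 62.6% of the members' TPM in libraries 1 to 4. Transcripts with a retained intron took 23.4 ± 0.87%, those annotated as processed_transcript, which have no open reading frame, 9.97 ± 0.43%, and targets of nonsense-mediated decay 4.94 ± 0.49% (SD, n = 4 libraries). Per count, with no correction for length, the protein_coding share was 66.1%. In 11 members all TPM was on protein_coding transcripts, and in 51 it was at least 50%. The leading transcript was protein_coding in 60 members, a processed_transcript in 7, a nonsense-mediated decay target in 6 and a retained intron form in 5.

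In 5 members under 10% of the TPM was on protein_coding transcripts. Mrpl57, a protein found only in mitochondrial ribosomes, had 17.5, 21.4, 16.4 and 17.4 TPM, of which 3.81% was on the coding form Mrpl57-201. Mrps16, a homolog of bacterial S16, had 14.9, 12.2, 10.9 and 12.6 TPM, with 5.87% on the coding form. Mrpl51 had 10.02, 11.3, 10.8 and 9.74 TPM, with 6.55% on the coding form, and Mrps26 stood at 6.78%. In these 4 genes the coding model was the longer one: Mrpl57-201 is 2877 bases long and the leading Mrpl57-202 519 bases, and Mrps16-201 is 2572 bases long and Mrps16-202 801 bases. By counts the coding forms took 20.6% in Mrpl57, 18.03% in Mrps16, 25.8% in Mrpl51 and 24.0% in Mrps26. In the second quantification the share of TPM on protein_coding transcripts was 20.3% in Mrpl51, 2.60% in Mrps16, 5.31% in Mrpl57, 6.95% in Mrps26 and 53.0% in Mrpl23, so 3 of the 5 stayed under 10%. The split between models that share most of their sequence is an estimate, and the data do not show how much protein is made from either.

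**Figure D4:**
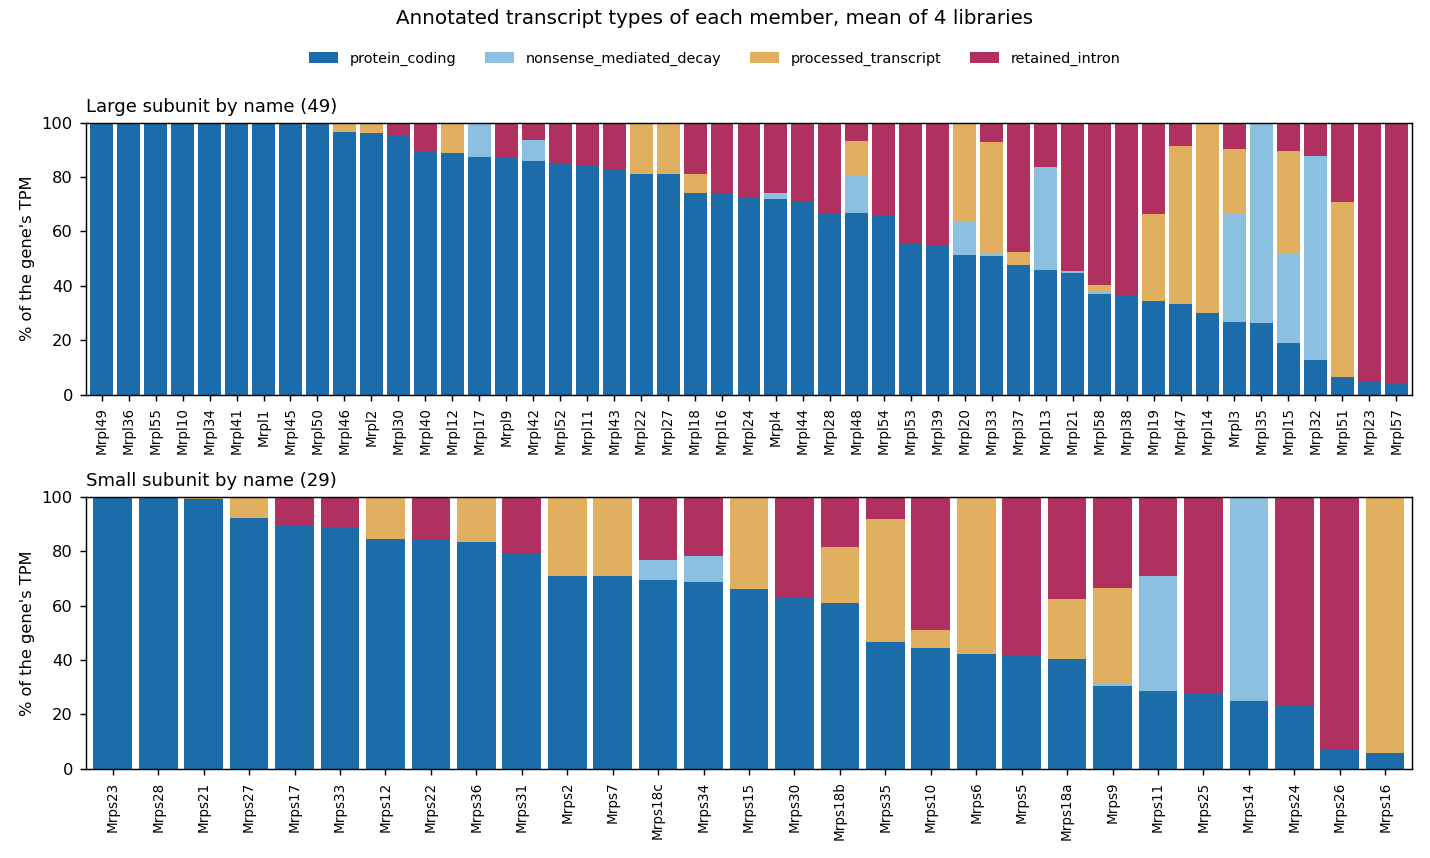
Share of each member's TPM (vertical axis, percent, mean of 4 libraries) on transcripts of the 4 annotated types (colours), for large subunit genes (top) and small subunit genes (bottom), ordered by the protein_coding share. The share runs from 100% in 11 genes to 3.81% in Mrpl57.

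The fifth gene of that kind was Mrpl23, which shares coding sequence with a pseudogene. Mrpl23 (chr7:142532686-142540747, plus strand, mm10) codes for a protein beside the peptide exit. Its coding transcript Mrpl23-201 and the processed pseudogene Mrpl23-ps1 (chr2:74591330-74591909, minus strand) share an aligned stretch of 540 bases, of which 540 are identical. The stretch holds the whole coding sequence of Mrpl23-201, 438 bases. The longest coding model, Mrpl23-206, has its coding sequence of 516 bases at bases 133 to 648. Its stretch identical to the pseudogene begins only at base 228, so part of that coding sequence lies outside it. The first 60 bases of the Mrpl23-201 coding sequence and the same bases of the pseudogene are shown, with the start codon in capitals. No read that falls inside them can be placed by its letters.
Mrpl23: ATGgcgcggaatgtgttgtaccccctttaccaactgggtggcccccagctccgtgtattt
Mrpl23-ps1: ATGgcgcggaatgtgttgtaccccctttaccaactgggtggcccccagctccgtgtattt

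Reads of this stretch were given to different genes by the 2 quantifications deposited for each library. The first gave Mrpl23 181.5, 187.5, 125.4 and 112.5 counts in libraries 1 to 4, and the pseudogene 201.5, 194.5, 184.6 and 182.6 counts. In TPM that is 5.29 ± 1.21 for Mrpl23 and 24.4 ± 1.62 for the pseudogene (SD, n = 4 libraries). The first quantification put 0 TPM on the coding transcript Mrpl23-201 in every library. The second gave Mrpl23 41.9 ± 2.88 TPM and listed the pseudogene at 0. The sum of both genes was 342.5 ± 46.6 counts in the first and 395.0 ± 60.3 counts in the second. The TPM scales of the quantifications differ, and rescaled to the summed TPM of genes with a protein_coding transcript Mrpl23 had 15.0 TPM in the first and 86.9 TPM in the second. The level of Mrpl23 is uncertain to that extent, and which locus the RNA came from was not tested.

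Across the members the 2 quantifications mostly gave close values. After both were rescaled in that way, the median log2 ratio, first over second, was 0.013. The ratio, as the mean log2 ratio over the 4 libraries, was within 1.5-fold for 73 of 78 members of any level, or 93.6%. For 7803 protein-coding genes with at least 5 TPM the share was 96.4%, taken from the ratio of the mean levels. The 2 shares thus differ in threshold and measure, and Mrpl45 at 4.85 TPM is below that threshold. All 5 members outside were lower in the first quantification. They were Mrpl23 at a log2 ratio of -2.56, Mrpl45 at -1.11, Mrpl48 at -0.72, Mrpl27 at -0.71 and Mrpl20 at -0.64. Mrpl48 had 8.65, 10.6, 10.1 and 10.5 TPM in the first, Mrpl27 had 7.41, 7.56, 5.79 and 7.81 TPM, and Mrpl20 had 18.9, 14.4, 15.7 and 16.5 TPM. The products of Mrpl27 and Mrpl48 belong to the central protuberance.

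**Figure D5:**
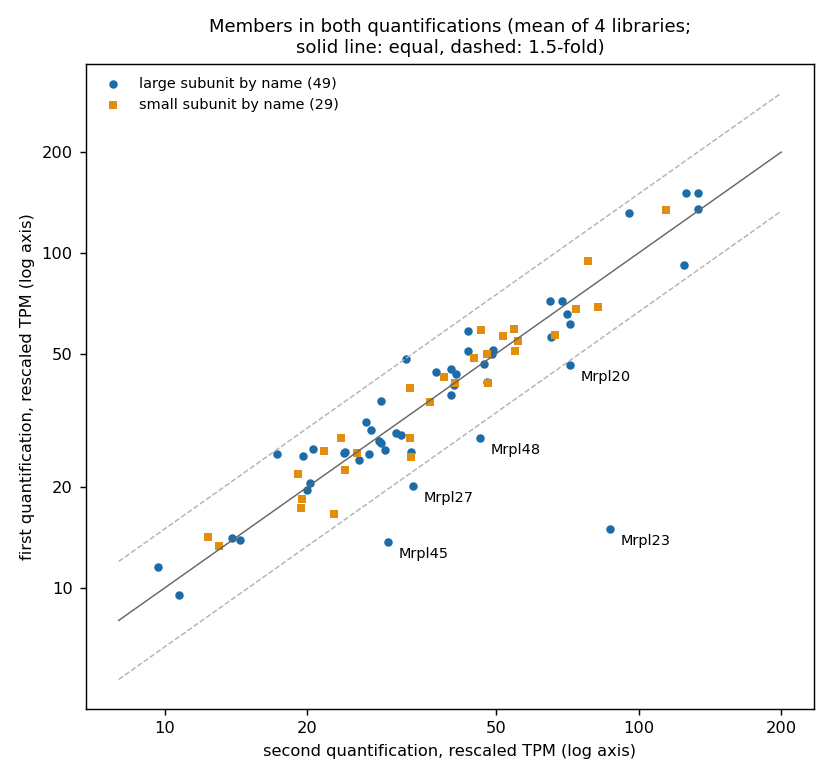
Rescaled TPM of the members in the first quantification (vertical log axis) against the second (horizontal log axis), mean of 4 libraries, with equality (solid line) and 1.5-fold limits (dashed lines). The 5 named genes lie below the lower limit, Mrpl23 farthest.

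Many members shared some sequence with other genes, mostly little, and the same share was not computed for genes outside the members. Of the 31-base words in a member's coding transcripts, a median of 1.51% also occur in transcripts of other genes, and 31 members share none. The share passed 10% in 20 members and 50% in 2. Those were Mrpl23 at 53.0% and Mrpl53 at 100%, whose words are all found in the overlapping gene model Gm42688. Mrpl53, a stalk protein, had 8.92 ± 1.19 TPM and Gm42688 4.11 TPM in the first quantification. The words of its coding transcripts cannot tell Mrpl53 from Gm42688. Whether Gm42688 has words of its own was not computed, so the split is an estimate. Mrpl27 shares 49.2% of its words, mostly with the pseudogene Gm6304, and Mrpl22 shares 43.2%, with Gm6997, but the first quantification listed both pseudogenes at 0. Of the other named pseudogenes of the family, Mrpl48-ps had 1.42 ± 0.47 TPM, and Mrps36-ps1, Mrps36-ps2 and Mrps36-ps3 were listed at 0 in every library.

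The members lie on 17 chromosomes, with 11 on chromosome 11 and 8 on chromosome 17, and many start back to back with another gene. A protein-coding gene on the opposite strand starts within 1000 bases of 33 of the 78 members, or 42.3%. The share was 10.8% of all 22028 protein-coding genes and 18.3% of the 10162 with a mean of at least 1 TPM, members included. In 18 of the 33 the 2 gene bodies lie apart, and in 15 they overlap at their starts. Mrpl46 and Mrps11, of the large and the small subunit, start opposite each other at 10.1 and 8.93 TPM. Several partners are themselves mitochondrial: Mrpl36 faces Ndufs6 and Mrpl47 faces Ndufb5, both subunits of complex I, Mrpl43 faces the mitochondrial DNA helicase gene Twnk, and Mrps12 faces the mitochondrial seryl-tRNA synthetase gene Sars2. These were picked for mention after the list was seen. Partners could differ widely in level. Mrpl49 had 9.23 TPM and its partner Fau, which codes for a cytosolic ribosomal protein, 1086 TPM, while Mrpl10 had 15.6 TPM and its partner Lrrc46 was listed at 0. Members with such a partner had a median of 10.5 TPM, and the other 45 members 14.5 TPM.

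Exons of 28 members overlap a gene on the opposite strand and exons of 8 overlap another gene on the same strand. Mrps25 shares 69.8% of its exon bases with Nr2c2 on the opposite strand, and Mrps34 shares 63.4% with Mapk8ip3 on the opposite strand and 37.0% with Nme3 on its own. The library kit keeps the strand per the labels, but whether the counting used it is not given in the sources used here, so values of these genes may hold reads of their neighbours.

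Start regions, from 250 bases before to 50 bases after the RefSeq start (GRCm38.p6), were at hand for 69 of the 78 members and were searched on both strands for 4 motifs. The NRF1 core, GCGCATGCG or its reverse complement CGCATGCGC, was found in 7 members, or 10.1%, against 1.95% of 27025 genes and 4.69% of 8039 protein-coding genes with a mean of at least 1 TPM. NRF1 is a factor known for activating nuclear genes of mitochondria. The ETS site CCGGAAGT, which GABP binds, was found in 12 members, or 17.4%, against 4.31% of all and 10.7% of the expressed protein-coding genes. The YY1 core AAGATGGCG was found in 8 members, or 11.6%, against 1.64% and 4.24%. The E-box CACGTG, bound by MYC, was found in 5 members, or 7.25%, against 8.09% and 12.4%. These shares describe letters in a window, were not tested and show no binding.

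The members with the NRF1 core were Mrps18b, Mrpl9, Mrpl17, Mrpl10, Mrpl32, Mrpl39 and Mrpl22. The 250 bases before the start are shown for the pair with the highest levels, 24.0 and 23.3 TPM, with the core in capitals, to show that its place differs. In Mrps18b (chr17:35916441-35916690, minus strand) the core begins 224 bases before the RefSeq start. The GENCODE start of Mrps18b, base 35916389, is a different base and lies 45 bases from the GENCODE start of Ppp1r10. In Mrpl9 (chr3:94443086-94443335, plus strand) the core begins 28 bases before the RefSeq start, where the motif matches on both strands in 2 overlapping positions.
Mrps18b: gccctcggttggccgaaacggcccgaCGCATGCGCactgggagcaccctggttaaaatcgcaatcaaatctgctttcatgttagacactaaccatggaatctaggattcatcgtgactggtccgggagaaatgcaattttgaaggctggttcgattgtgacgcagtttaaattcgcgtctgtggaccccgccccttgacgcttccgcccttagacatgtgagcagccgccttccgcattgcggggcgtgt
Mrpl9: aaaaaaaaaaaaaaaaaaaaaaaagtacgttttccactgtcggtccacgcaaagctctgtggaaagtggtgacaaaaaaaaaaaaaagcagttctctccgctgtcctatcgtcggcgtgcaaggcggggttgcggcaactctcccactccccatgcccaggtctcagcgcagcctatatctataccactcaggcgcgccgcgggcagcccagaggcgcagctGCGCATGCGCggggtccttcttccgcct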

How the data were processed

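Total RNA of splenic T cells was measured in 4 libraries of 1 group. Per the deposited text files, values refer to mm10 and GENCODE M21; aligner and quantifier names were not found in these sources. The authors deposited a first quantification with expected counts, TPM and FPKM per gene and per transcript, and a second with estimated counts and TPM per transcript, summed here per gene. The deposited expected counts are not normalized, and the deposited TPM and FPKM values are scaled to length and library. Each library was quantified alone, against the C57BL/6 reference, so reads from the CAST/EiJ genome may be lost or assigned elsewhere.

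Expected counts were rounded and tested for spread between libraries with edgeR 4.0.16 (R 4.3.3; filterByExpr, TMM, trended dispersion, intercept only, goodness-of-fit test, Benjamini-Hochberg at 0.05 over 13118 genes), tested on simulated data. DESeq2 1.42.0 size factors and trend, the second quantification, other filters and leaving out each library were alternatives. The 97 spike-ins and 26248 numeric identifiers were kept out of library sizes. A floor of 3 counts corresponds to 0.174 to 0.206 CPM and, like all counts of PCR reads without molecular identifiers, covers counting error only. Levels were averaged as log2(TPM + 1), with a pseudocount of 1, and 4 gene pairs were compared by exact sign-flip permutation. Numbers were computed with Python 3.11.15 and pandas 2.3.3.

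Members and lists were chosen with earlier results of these data known. Values per library were given for the 6 highest and 4 lowest members of each subunit, the paired genes, the 5 with the largest test statistic, and, at 5 TPM or more, the 4 with the lowest protein_coding share and the 4 that differed most between quantifications. 7 listed symbols were not found.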

Additional observations from a re-analysis of the deposited data

Results flagged for a closer look

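In 3 of 89 sets of 4 library values examined 1 library lay farther from the others than Dixon's criterion for 4 samples allows, which chance gives in about 1 of 20 sets. Mrps21 had 36.4 TPM in library 3, against 32.0 to 32.7 TPM in the other libraries. Mrpl9 had 25.3 TPM in library 2, against 22.5 to 22.7 TPM. Mrpl11, a stalk protein gene, had 10.9 TPM in library 3, against 9.22 to 9.41 TPM. None of the 3 was called by edgeR's goodness-of-fit test.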

How the results depend on the processing

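All 9 alternatives called 0 of the 78 members. Over all genes the 183 calls became 279 with no filter, and 118, 129, 146 and 116 without library 1, 2, 3 and 4. With a pseudocount of 0.1 the mean levels were 3.67 (large), 3.71 (small), -5.84 (members minus cytosolic), -1.44 (minus oxidative phosphorylation) and 1.03 (minus translation factors). With medians over genes they were 3.63, 3.94, -5.94 (minus cytosolic) and 0.57 (minus factors), and large minus small was -0.31. In the second quantification they were 4.26, 4.23, -5.94 and -1.43, large minus small turned to 0.032 and Mrpl12 minus Mrpl10 to 0.10. FPKM gave 3.85 for the small subunit, and a filter at 1 TPM gave 0.65 (minus factors). On TPM rescaled to protein-coding genes, 77 members reached 10 TPM. The protein_coding share was 63.9% in the second quantification and 70.1% as a median over genes. Mrps18a minus Mrps18c ran from -0.13 to 0.057 with 1 library left out, positive only without library 3, and Mrps18b minus Mrps18c from 0.15 to 0.41. Of 32 members named with values, 23 moved by more than 1 SD in the second quantification and 0 when any 1 library was left out. The cause of these differences was not tested. Low counts limit the genes with the fewest counts most. No paired analysis was possible because there was only 1 group.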

Other observations

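Among the genes of the wider pathway, 1 aminoacyl-tRNA synthetase gene was called as varying between libraries. Lars2, the mitochondrial leucyl-tRNA synthetase, had 673.8, 246.1, 287.9 and 207.6 TPM in libraries 1 to 4 (adjusted p = 2.47e-51, edgeR goodness-of-fit test), and it was the only gene called of 23 in its list. Its mean of 353.9 TPM was far above the list median of 8.34 TPM. The next genes of the list were Qars at 80.3 TPM, whose place in a mitochondrial list is doubtful, and Tars2 at 40.6 TPM. Whether the reads counted for Lars2 come from the synthetase messenger RNA was not tested. In the lists of translation factors (12 genes), assembly and modification (27 genes), mitochondrial transcription and messenger RNA handling (17 genes), membrane insertion (5 genes) and mitoribosomal proteins under other names (5 genes), 0 were called and 0 had an unadjusted p below 0.05. Membrane insertion, led by Oxa1l at 27.9 ± 3.97 TPM (SD, n = 4 libraries), had a median of 17.8 TPM. Of 13 mitochondrially coded messenger RNAs, mt-Co2, mt-Co3 and mt-Nd4l were called, of 76 cytosolic ribosomal protein genes Rps12, and of 73 oxidative phosphorylation genes tested none, where 1.40% of all genes were called.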
